A study of Homo sapiens with 12 samples.

Results

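The nuclear genes for mitochondrial proteins were examined among the RNAs recovered with dSpCas9 in HEK 293T cells. Of 20028 protein-coding genes in GENCODE version 44, 262 have symbols of the families MRPL and MRPS (mitochondrial ribosome), NDUF, SDHA to SDHD, UQCR, COX and ATP5 (respiratory chain and ATP synthase), TIMM and TOMM (protein import) and SLC25A (carriers), or are MFN1, MFN2 or OPA1 (fusion). They comprised 78 ribosome genes, 107 respiratory chain genes, 26 import genes, 48 carriers and 3 fusion genes, and 3 of the 262 were read-through genes. A peak was assigned to a gene when it overlapped an exon of it on the same strand. Of the 262 genes, 72 had a peak in 1 list or more and 190 had none. These peaks numbered 157 of 6605 over input and 73 of 3005 over the empty vector for V5, and 138 of 6554 over input and 39 of 1964 over the empty vector for FLAG.

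Almost all mitochondrial proteins are encoded in the nucleus, translated in the cytosol and imported. Many matrix and inner membrane proteins begin with a targeting presequence, which the translocases of the outer (TOM) and inner (TIM) membrane recognize and pass through. The mitochondrial ribosome makes the few proteins that mitochondrial DNA encodes, and these join the imported subunits in the respiratory chain complexes. Carriers of the SLC25 family exchange metabolites across the inner membrane, and mitofusins and OPA1 fuse the outer and inner membranes.

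eCLIP cross-links proteins to RNA in living cells with UV light, pulls down a protein by immunoprecipitation (IP) and sequences the RNA attached to it. Cells of the Lenti-X 293T line, a HEK 293T derivative, had been transfected with a plasmid for V5-tagged or 3xFLAG-tagged dSpCas9, a Streptococcus pyogenes Cas9 without nuclease activity that stays mainly in the cytoplasm, or with the empty vector. The 12 libraries formed 6 groups of 2 biological replicates, which were IP and size-matched input (the same membrane region without IP) from V5-dSpCas9 cells, the same from 3xFLAG-dSpCas9 cells, and V5 IP and FLAG IP from empty vector cells. All cells were exposed to 400 mJ/cm2 of UV light, and RNA was taken from the membrane from 115 kDa upward. The protein came from a transient plasmid and no guide RNA is named in the labels, so the peaks describe an overexpressed protein in a single cell line.

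For each tag, the authors compared the IP with the input and with the empty vector IP, and they deposited 1 list for each comparison with both replicates merged. The enrichment of a peak is a log2 ratio of IP to control reads, taken from the geometric mean of the ratios of both replicates, and every listed peak has at least 3.00. A gene's value in a list below is the enrichment of its highest peak there. With 1 value per peak there was no spread over replicates, no test could be made, and all comparisons are descriptions. The intervals given with shares are 95% Wilson intervals, and they reflect counting error alone, while peaks next to each other on a gene are not independent. The lists of a tag share their IP libraries, so the empty vector list is no independent repeat of the input list, whereas the V5 and FLAG lists share no library. The RNA level of each gene and the depth of the libraries are unknown here, so genes that the cells do not express are counted among those without a peak.

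The start codon lay inside a peak in all 4 lists in 4 of these genes, and their sequences around it are given because this position recurred among the members. Each is 12 nt before and 18 nt from the start codon on hg38, 5′ to 3′, with the ATG in capitals. ATP5F1A is at chr18:46098214-46098243 (minus strand), NDUFA9 at chr12:4649115-4649144 (plus), NDUFB7 at chr19:14571983-14572012 (minus) and SLC25A11 at chr17:4939893-4939922 (minus).
ATP5F1A: gtaactgcaaagATGctgtccgtgcgcgtt
NDUFA9: ttgtgggaaaagATGgcggctgccgcacaa
NDUFB7: gcgactgcagccATGggggcccacctggtc
SLC25A11: cattgagtggcgATGgcggcgacggcgagt

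An interval was called shared when the 4 lists overlapped there by at least 50% of the first interval on the same strand. The study's motif, the GU-loop:5nt-stem, is a GU with a U paired with a probability under 0.7, followed by 5 bases each paired over 0.5. Stretches of at most 30 nt of 8 shared intervals are given to show what they look like with and without it, and capitals mark the GU and the 5 stem bases. The first 3 lie in coding exons, namely exon 10 of 12 of ATP5F1A at chr18:46086131-46086160 (minus), exon 4 of 7 of ATP5PO at chr21:33909145-33909174 (minus) and exon 6 of 8 of SLC25A3 at chr12:98600059-98600088 (plus). MRPL49 at chr11:65126622-65126651 (plus) and SLC25A25 at chr9:128108121-128108150 (plus) are in the 3′ UTR. MRPS5 at chr2:95121962-95121991 (minus) is in an exon outside the canonical transcript. MFN2 at chr1:12012488-12012517 (plus) and COX7A2 at chr6:75237877-75237906 (minus) lie in shared 3′ UTR intervals without a called motif. The calls used 50 nt of genome on each side of an interval, and that of ATP5F1A touches the end of its exon. Folded without these flanks, only the intervals printed for SLC25A3 and SLC25A25 kept a called motif. None of the 8 had one with stem bases paired over 0.7.
ATP5F1A exon 10: tgagtcgtggcGTGCGTCtaactgagttgc
ATP5PO: tgaatccctatGTGAAGCgttccattaaag
SLC25A3: ttcctaagccccgcaGTGAATGttcaaagc
MRPL49: gatcttgtttgGTGCAGGtgatggagaaca
SLC25A25: acagaaggcaaGTGCTGGggctcatggtgc
MRPS5: ggctgtccgcgGTCGCGCcgggctccgcct
MFN2: gccgtccacttggcctcgttctgcgagggg
COX7A2: tggttcagtttcattcagctctctatggac

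Mitochondrial protein mRNAs had a peak in a larger share than protein-coding genes as a whole. The latter include genes that the cells do not express, and their part in this difference was not tested. The 72 genes with a peak in any list were 27.5% of the 262 (interval 22.4 to 33.2), against 18.1% of all protein-coding genes. For V5 over input the count was 63 genes, or 24.0% (19.3 to 29.6) against 13.6% of all. For FLAG over input it was 48 genes, or 18.3% (14.1 to 23.5) against 13.2%. Over the empty vector the counts were 29 genes (11.1%, against 6.79%) for V5 and 18 genes (6.87%, against 4.97%) for FLAG. The share thus lay above that of all genes in each list, with an interval that included the all-gene share for the FLAG empty vector list (4.39 to 10.6). Peaks in all 4 lists were found for 11 genes, where 2.79% of all genes had them. As a share of genes with any peak, these 11 were 15.3%, close to the 15.4% of all protein-coding genes.

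The mRNAs of the members with a peak were short beside those of other genes with a peak. The median canonical mRNA of the 72 genes was 1711 nt long, against 3752 nt for all protein-coding genes with a peak. Among the members, genes with a peak were longer than those without, which had a median of 1303 nt. Among genes with an mRNA of up to 1000 nt, 17.0% of 94 members and 6.12% of all genes had a V5 peak over input. Between 1000 and 2000 nt, the shares were 27.5% of 80 members and 9.11% of all genes for V5, and 22.5% and 8.25% for FLAG. Between 2000 and 4000 nt the V5 shares were 21.4% of 56 and 13.9%. Above 4000 nt they were 40.6% of 32 and 18.5%. Members exceeded the all-gene share in all 4 length classes for both tags. Genes that the cells do not express are counted in these classes too.

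The enrichment itself was similar to that of other genes. The median of the members' peaks was 3.62 for V5 over input, against 3.61 over all peak and gene pairs on protein-coding genes, and 3.69 against 3.61 for FLAG over input. Over the empty vector the medians were 3.76 against 3.62 for V5 and 3.39 against 3.59 for FLAG. At an enrichment of at least 4, 8.02% of the members and 5.04% of all genes had a V5 peak over input, and 8.40% and 4.97% had a FLAG peak over input. For V5 over the empty vector the shares were 5.34% and 2.27%. In the FLAG empty vector list, the order was turned, with 0.763% of the members (2 genes) and 1.58% of all genes.

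**Figure D1:**
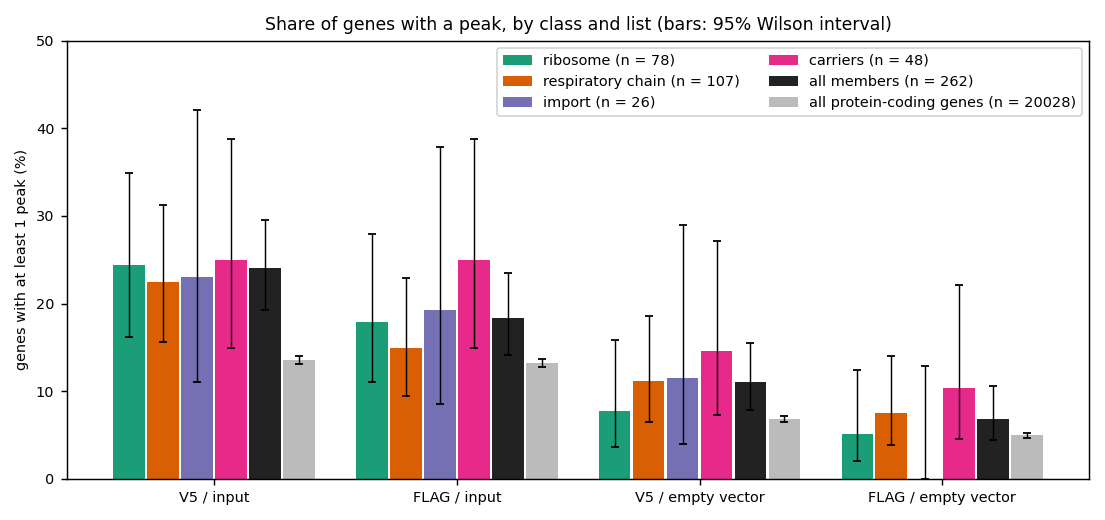
Share of genes with at least 1 peak (y axis, percent) by list (x axis) for ribosome, respiratory chain, import and carrier genes, all 262 members and all 20028 protein-coding genes. Bars start at 0 and the lines are 95% Wilson intervals, which overlap between the classes in every list, and no import gene has a peak in the FLAG empty vector list.

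Ribosome, respiratory chain and import genes had peaks over input in similar shares. For V5 over input, 19 of 78 ribosome genes (24.4%, 16.2 to 34.9), 24 of 107 respiratory chain genes (22.4%, 15.6 to 31.2), 6 of 26 import genes (23.1%, 11.0 to 42.1) and 12 of 48 carriers (25.0%, 14.9 to 38.8) had a peak. For FLAG over input the counts were 14 ribosome genes (17.9%), 16 respiratory chain genes (15.0%), 5 import genes (19.2%) and 12 carriers (25.0%). All these intervals overlapped. Over the empty vector, the counts for V5 were 6, 12, 3 and 7 genes in the same order, and those for FLAG were 4, 8, 0 and 5. As a share of genes with a peak over input, those with a peak over the empty vector were 46.0% of members and 44.6% of all genes for V5, and 37.5% and 35.9% for FLAG. Among all protein-coding genes with a peak over the empty vector, 11% had none over input for V5 and 4.72% for FLAG. For members that count was 0 of 29 and 0 of 18.

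In the ribosome, 10 of 49 large subunit genes and 9 of 29 small subunit genes had a V5 peak over input, and 8 and 6 had a FLAG peak. The highest were MRPL10 and MRPS5, followed by MRPL49, MRPS27 and MRPS11. MRPL10, which anchors the stalk of the large subunit, had 4.88 for V5 over input, 4.87 for FLAG over input and 3.20 for FLAG over the empty vector, with no peak in the V5 empty vector list. Its highest V5 peak lay in the CDS and its highest FLAG peak in the 3′ UTR, so the nearly equal values came from different positions. MRPS5, a small subunit protein, had 4.68 and 4.61 over input for V5 and FLAG and 3.99 and 3.23 over the empty vector. It had a single peak in each list, on an exon upstream of the start of its canonical transcript.

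MRPL49 had 4.03 for V5 and 4.76 for FLAG over input, and 3.02 and 3.54 over the empty vector. All of its 7 peaks were in the 3′ UTR. MRPS27, a pentatricopeptide repeat protein of the small subunit, had 3.67 for V5 and 4.85 for FLAG over input and 3.50 for FLAG over the empty vector. MRPS11 had 4.35 and 4.05 over input and 3.65 over the empty vector for V5. MRPL12, whose protein binds MRPL10 in the stalk, was higher over the empty vector (5.32 for V5) than over input (4.33 for V5 and 4.03 for FLAG), and had no peak in the FLAG empty vector list. The value of 5.32 belonged to a peak of 4 nt. Of its peaks, 15 lay on exons of another annotated gene that also spans SLC25A10, so their reads cannot be given to MRPL12 alone.

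The complexes of the respiratory chain are groups of gene symbols here, and their genes need not all be subunits. For complex I the group was NDUF without NDUFAF. Of these 40 genes, 11 had a V5 peak over input (27.5%, 16.1 to 42.8) and 3 had a FLAG peak (7.50%, 2.58 to 19.9). The intervals overlapped, and all protein-coding genes had 13.6% for V5 and 13.2% for FLAG. The 3 genes with a FLAG peak, NDUFB7 and NDUFA9 among them, all had a V5 peak too. The other 8 had 1 V5 peak each, with values from 3.04 in NDUFS1 to 3.99 in NDUFS3. NDUFB7, an accessory subunit on the intermembrane space side, had 4.94 for V5 and 5.61 for FLAG over input and 4.53 and 3.64 over the empty vector. Its peaks covered the 5′ UTR and the beginning of the CDS in all 4 lists, yet no interval met the 50% rule for sharing. NDUFA9, an accessory subunit of the matrix arm, had 4.46 and 5.03 over input and 4.15 and 3.85 over the empty vector. Its 8 peaks, start codon included, all lay on exons that 2 other annotated genes also hold.

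The ATP synthase, complex V, held the gene with the highest enrichment among all members. ATP5F1A, the alpha subunit of the catalytic head, had 6.71 for V5 and 4.74 for FLAG over input, and 4.55 and 3.21 over the empty vector. By the mean of both input values it ranked 20 of 1857 protein-coding genes with peaks over both inputs. It also had the most peaks, with 25 over input in the V5 and FLAG lists together. The highest peak, of 20 nt, lay in the 5′ UTR at chr18:46098239-46098258, next to a peak of 6.51. In the other 3 lists that stretch had 4.74, 4.51 and 3.09, so V5 over input stood above the rest there. Both FLAG values belong to a longer peak, from position -63 to 60 relative to the start codon, so they do not describe that stretch alone. In its shared interval in exon 10 the values were 4.67 and 4.42 over input and 4.28 and 3.09 over the empty vector, with V5 and FLAG close over input.

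ATP5F1B, the catalytic beta subunit, had 4.90 for V5 and 3.60 for FLAG over input and 4.24 for V5 over the empty vector. ATP5PO, the peripheral stalk subunit known as OSCP, had 4.23 and 4.59 over input and 4.38 and 3.10 over the empty vector. Of its 22 peaks, 21 lay on exons of another annotated gene, and their reads cannot be told apart. Of 19 complex V genes, 5 had a V5 peak and 4 a FLAG peak over input.

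Of the 4, 9 and 17 genes of complexes II, III and IV, 1, 3 and 2 had a V5 peak over input and 1, 3 and 1 a FLAG peak. SDHA, the flavoprotein of complex II, had 3.38 for V5 and 3.33 for FLAG over input and 3.73 for V5 over the empty vector, and all 6 of its peaks lay on exons of another annotated gene. UQCRC1, a core protein of complex III, had 12 peaks over input, with 3.81 for V5, 4.43 for FLAG and 3.93 for V5 over the empty vector. COX7A2, a small subunit of complex IV, had 3.91 and 4.24 over input and 3.45 and 3.20 over the empty vector. A peak crossed its stop codon in each of the 4 lists. COX18, an insertase that assembles complex IV, had 3.75 and 3.99 over input and 5.22 for V5 over the empty vector. Of 18 assembly factors and ATP5IF1, 2 had a V5 peak and 4 a FLAG peak over input.

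Import genes with peaks belonged mostly to the outer membrane translocase. For V5 over input, 5 of 10 TOMM genes and 1 of 16 TIMM genes had a peak, and for FLAG 4 and 1. TOMM40, the channel of the complex, had 4.63 for V5 and 3.87 for FLAG over input and 4.18 for V5 over the empty vector. These 3 peaks lay at nearly the same place in the CDS, with midpoints 181 to 185 nt from the start codon. TOMM6, a small subunit, had 4.10 and 3.01 over input and 4.27 for V5 over the empty vector, and its 3 peaks all lay on exons of another annotated gene. TOMM20, a presequence receptor, had 3.20 and 3.59 over input and 3.51 for V5 over the empty vector. The only TIMM peaks were in TIMM44, which tethers the import motor (3.06, V5 over input), and TIMM10, a chaperone of the intermembrane space (3.69, FLAG over input).

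Among the carriers, SLC25A11 and SLC25A25 kept high values in all 4 lists. SLC25A11, which exchanges oxoglutarate for malate, had 5.36 and 5.10 over input for V5 and FLAG and 5.02 and 4.34 over the empty vector. SLC25A25, a calcium-regulated ATP-magnesium/phosphate carrier, had 5.03 for both tags over input and 5.02 and 4.52 over the empty vector. These were the only members with a FLAG value of at least 4 over the empty vector. SLC25A3, the phosphate carrier, had 4.59 and 4.51 over input and 4.07 and 3.77 over the empty vector. SLC25A11, SLC25A25 and SLC25A3 each had 18 peaks over input. The ADP/ATP carriers were lower, with 3.54 for V5 and 4.18 for FLAG over input in SLC25A4, and 4.13, 3.50 and 3.46 (V5 over the empty vector) in SLC25A5.

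MFN2, a mitofusin of the outer membrane, had peaks in all 4 lists, with 4.92 and 4.49 over input and 3.42 and 3.57 over the empty vector. Its 16 peaks over input were spread over the end of the CDS and the 3′ UTR. OPA1, the inner membrane fusion protein, had a single peak at 3.01 in V5 over input, at the threshold and across the start codon. MFN1, the other mitofusin, had none.

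**Figure D2:**
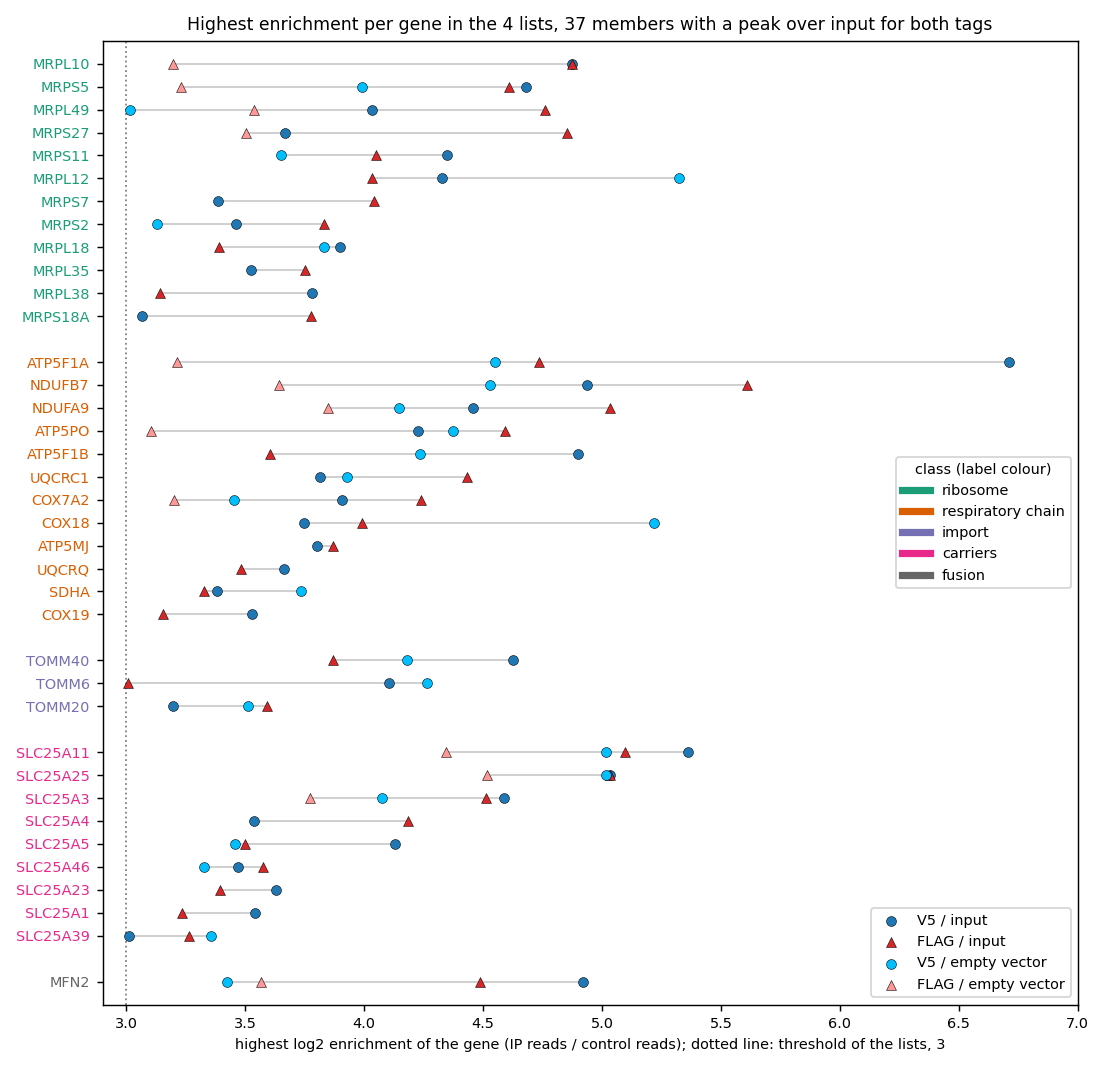
Highest log2 enrichment (x axis) of 37 of the 39 members with a peak over input for both tags (y axis, label colour by class), with V5 as circles and FLAG as triangles, over input in dark and over the empty vector in light colours. ATP5F1A stands apart for V5 over input at 6.71, and the lowest value of SLC25A25 (4.52) and SLC25A11 (4.34) is higher than that of any other gene shown with peaks in all 4 lists.

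**Figure D3:**
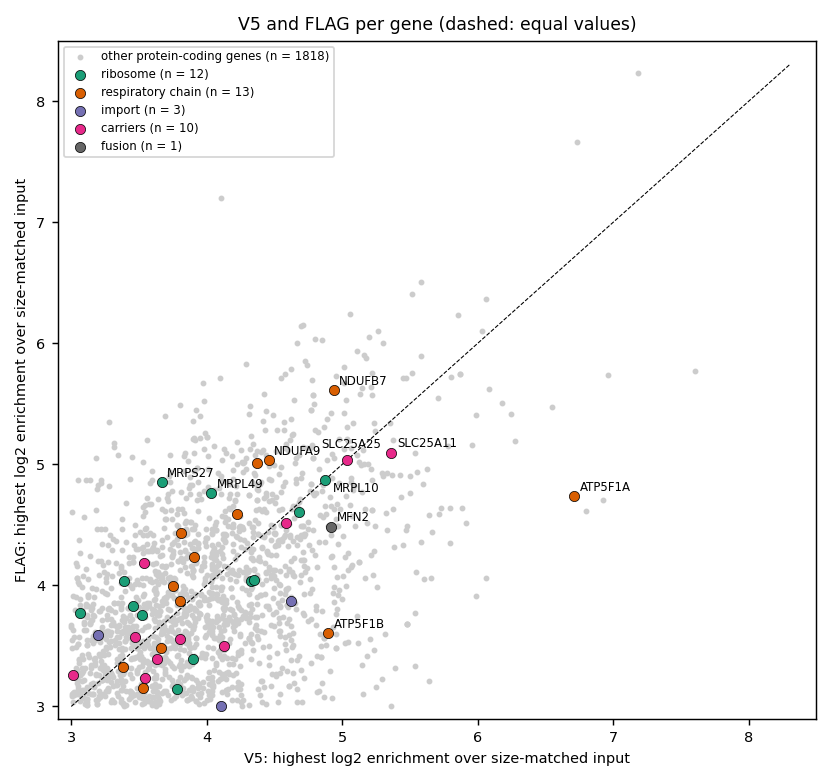
Highest log2 enrichment over input of each gene for V5 (x axis) and FLAG (y axis), for the 39 members (coloured by class) and 1818 other protein-coding genes (grey), with the dashed line at equal values. Most members lie near the line, and ATP5F1A lies farthest from it among them.

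V5 and FLAG gave related values for the same members. Across the 39 genes with a peak over both inputs, Pearson's r was 0.61 and Spearman's rho 0.63, and over all 1857 such protein-coding genes r was 0.51. These genes share the libraries within each list, and no p-value was computed. FLAG was higher in 18 of the 39, and the median absolute difference was 0.37. The largest difference, 1.98, was that of ATP5F1A, whose highest V5 peak is shorter than its highest FLAG peak. Without ATP5F1A and SLC25A11, the genes farthest from the median on the V5 axis, r was 0.61. Another 24 members had a peak over input for V5 alone and 9 for FLAG alone, where all protein-coding genes had 860 and 782. The V5-only genes had a median of 3.39, against 3.90 in V5 for the 39 genes of both tags. Over all protein-coding genes these medians were 3.48 and 3.94, a similar gap.

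**Figure D4:**
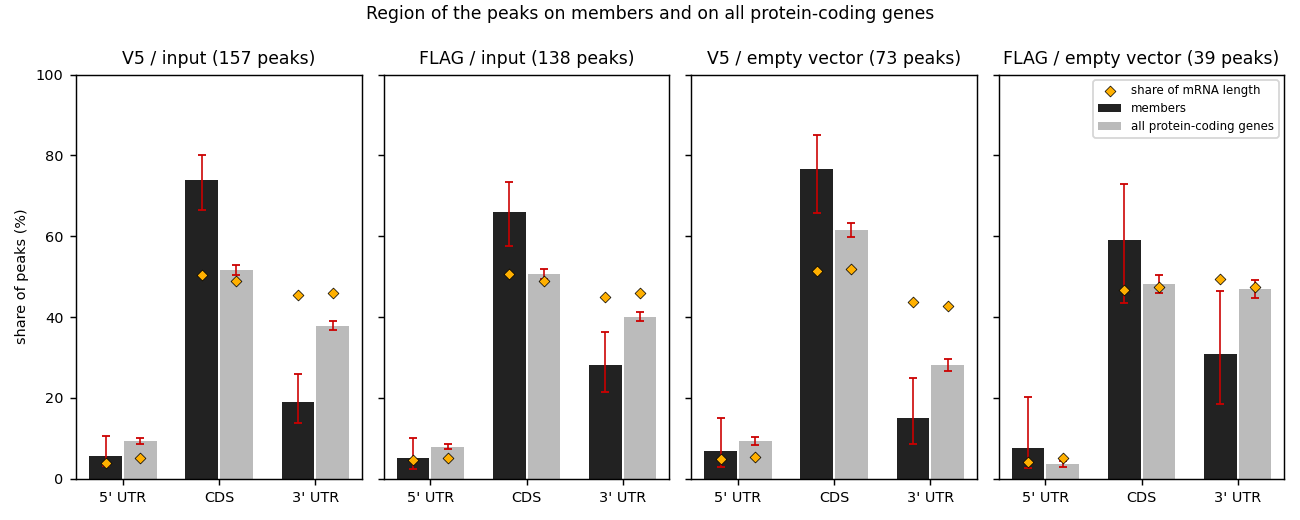
Share of peaks (y axis, percent) in the 5′ UTR, CDS and 3′ UTR in each of the 4 lists, for members (black) and all protein-coding genes (grey) with 95% Wilson intervals in red, beside the mean share of mRNA length of each region (diamonds). In the V5 lists and in FLAG over input, the members' bar for the CDS is above the grey bar and the diamond, with the interval above both.

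A larger share of peaks lay in the CDS in members than in all protein-coding genes. For V5 over input, 73.9% of 157 peaks were in the CDS (66.5 to 80.1), against 51.6% of all peak and gene pairs on protein-coding genes. For FLAG over input the share was 65.9% (57.7 to 73.3) against 50.7%, for V5 over the empty vector 76.7% (65.8 to 84.9) against 61.5%, and for FLAG over the empty vector 59.0% (43.4 to 72.9) against 48.2%. The CDS was 50.5% of the mRNA length of the members with a V5 peak over input, averaged over genes. The 3′ UTR held 19.1% of the V5 peaks over input and 28.3% of the FLAG peaks, where all genes had 37.9% and 40.1%. Over the empty vector it held 15.1% (V5, against 28.1%) and 30.8% (FLAG, against 47%). The 5′ UTR, which is short in these mRNAs (median 62 nt in the 72 genes), held 5.73% of V5 and 5.07% of FLAG peaks over input, against 9.26% and 7.94%, and 6.85% and 7.69% over the empty vector, against 9.29% and 3.57%. The members with most peaks are few, and the 10 genes with most held 51.2% of the 295 peaks over input. Without the 5 genes with most peaks, the CDS share for V5 over input was 70.0% (60.9 to 77.8), still above that of all genes. For FLAG over input it was 57.8% (47.5 to 67.5) and for V5 over the empty vector 75.0% (59.8 to 85.8). Both of these intervals included the all-gene share. For FLAG over the empty vector it was 42.1%, below the 48.2% of all genes.

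The region of the peaks varied by class when counted by peak. In respiratory chain genes the CDS held 83.9% of 62 V5 peaks (72.8 to 91.0) and 80.0% of 50 FLAG peaks over input (67.0 to 88.8). In ribosome genes it held 70.0% of 40 V5 peaks (54.6 to 81.9) but 43.3% of 30 FLAG peaks (27.4 to 60.8), and the 3′ UTR held 50.0% of the latter. The intervals of the respiratory chain and ribosome genes did not overlap for FLAG and did for V5. These count neighbouring peaks separately, and ATP5F1A alone had 16 of the 62 V5 peaks. Genes with a FLAG peak over input had one in the CDS in 12 of 16 respiratory chain genes (75.0%) and 7 of 14 ribosome genes (50.0%). Over all protein-coding genes this share was 56.3%. For V5 over input the shares by gene were nearly equal, 19 of 24 (79.2%) and 15 of 19 (78.9%), against 59.0% of all genes. Carriers had 74.4% of 39 V5 peaks and 75.0% of 44 FLAG peaks in the CDS. Import genes had 3 of 8 V5 peaks and 3 of 5 FLAG peaks there.

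Peaks across the start codon took a larger share in members than in all protein-coding genes. They made up 15.9% of the members' V5 peaks over input against 5.61% of all, 8.70% against 4.01% for FLAG over input, 15.1% against 6.35% for V5 over the empty vector and 10.3% against 2.32% for FLAG over the empty vector. Members have short coding sequences, and the median CDS of the 72 genes was 845 nt, against 1443 nt for all genes with a peak. Among genes with a CDS of up to 1000 nt, the V5 shares over input were 21.1% of 76 peaks and 7.11% of all, and the FLAG shares were 11.6% of 69 and 5.76%. Among genes with a longer CDS they were 11.1% and 4.95% for V5 and 5.80% and 3.31% for FLAG. For FLAG, the members' interval included the all-gene share in the longer class (2.28 to 14.0) and lay just above it in the shorter class (5.99 to 21.2).

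These start codon peaks came from 25 genes, 12 of them in both input lists. The 12 included ATP5F1A, ATP5F1B and ATP5PO of complex V, NDUFA9 and NDUFB7 of complex I, and MRPL12, MRPL35, MRPS7 and MRPS11 of the ribosome. The others were SLC25A11 and SLC25A46, members of the SLC25 family by symbol, and the import gene TOMM6. The peaks of TOMM6 cannot be told apart from those of the gene that shares its exons. In ATP5F1A, NDUFA9, NDUFB7 and SLC25A11, whose start sequences are given above, such a peak was in all 4 lists. Stop codons lay in a peak in 11 genes, and in both input lists in 5, among them COX7A2, MRPL12, SLC25A3 and SLC25A25. Peaks across the stop codon made up 6.37% of the members' V5 peaks over input against 2.48% of all, 3.62% against 2.72% for FLAG over input, 4.11% against 2.43% for V5 over the empty vector and 5.13% against 2.77% for FLAG over the empty vector.

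Intervals shared by the 4 lists numbered 22 in 10 members, of 749 in all, where 2.07% of all protein-coding genes had one and the 10 were 3.82% of the 262. The genes were ATP5F1A with 5 intervals, SLC25A11 and SLC25A25 with 4 each, ATP5PO and SLC25A3 with 2 each, and COX7A2, MFN2, MRPL49, MRPS5 and NDUFA9 with 1 each. No import gene had one. As a share of genes with any peak, the 10 were 13.9%, against 11.4% of all protein-coding genes. Of the 22 intervals, 14 lay in the CDS (63.6%), 5 in the 3′ UTR, 2 in the 5′ UTR and 1 outside the canonical transcript. Over the 771 pairs of a shared interval and a protein-coding gene, 47.2% were in the CDS and 45.9% in the 3′ UTR. FLAG over the empty vector was the lowest of the 4 values in 15 of the 22, and it was below FLAG over input in all 22. Over all 749 intervals the shares were 57.0% and 85.8%. The 22 intervals are not independent. All those of ATP5F1A outside exon 10 carried the FLAG values 4.74 and 3.09, from a single FLAG peak in each list. Both intervals of SLC25A3 likewise carried the FLAG values 4.26 and 3.77.

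**Figure D5:**
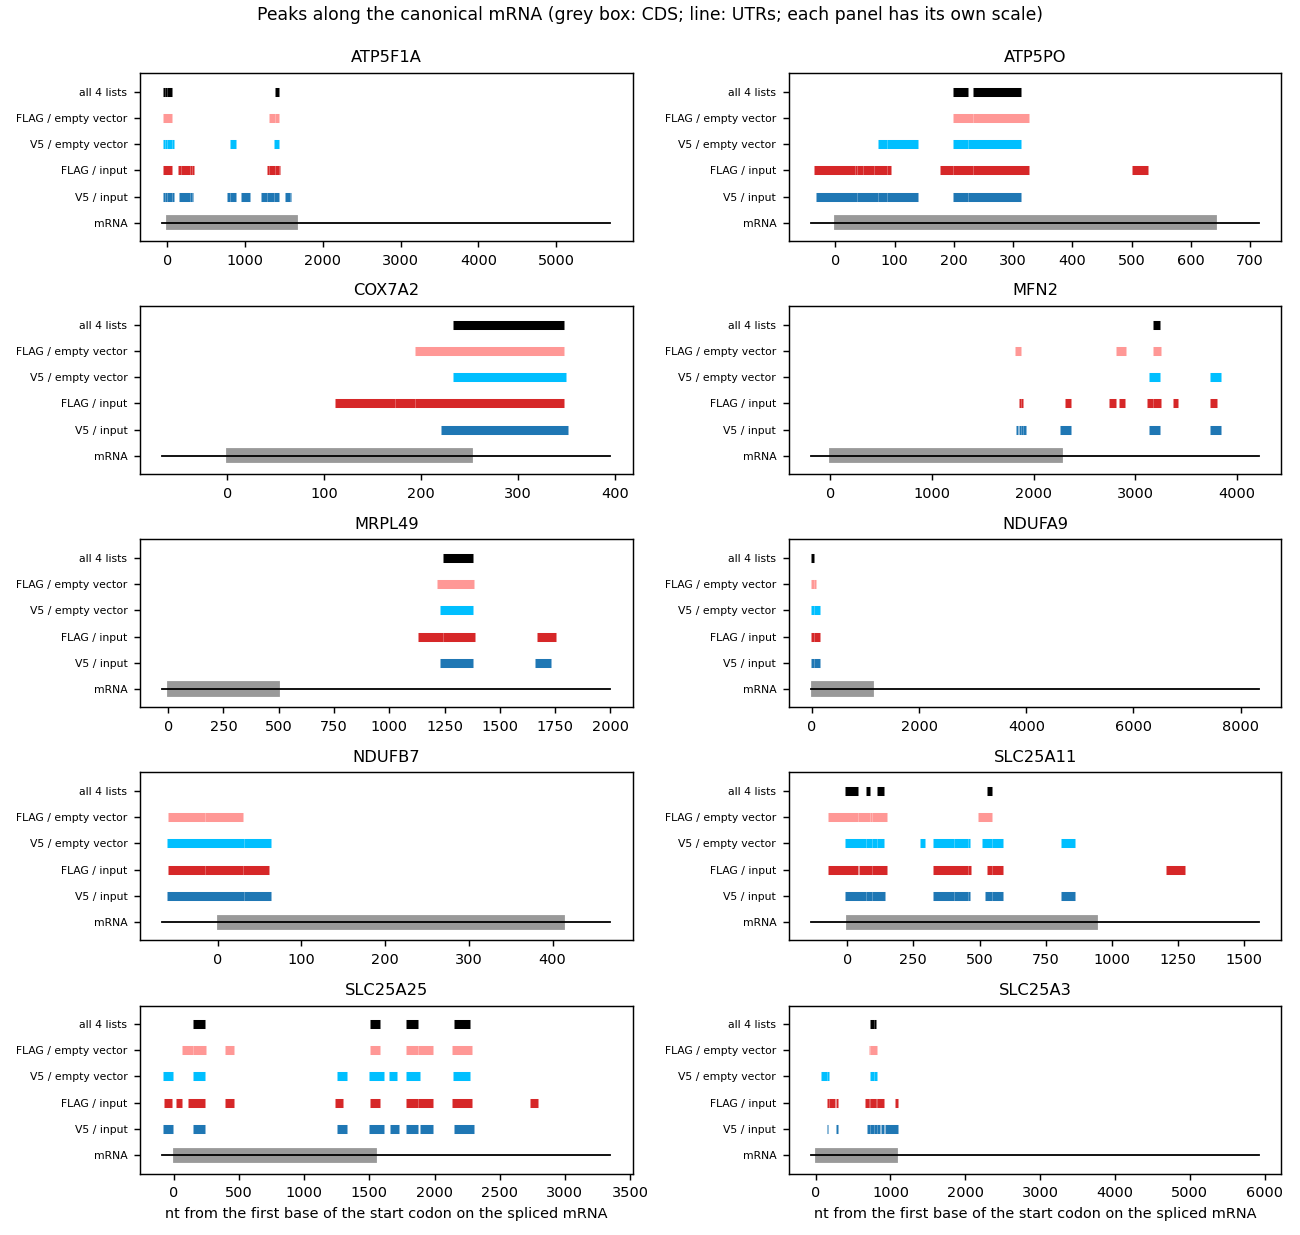
Peaks along the canonical mRNA of 10 members, by list (rows), with position in nt from the start codon on the x axis, the CDS as a grey box and intervals shared by the 4 lists in black. In ATP5F1A, NDUFA9, NDUFB7 and SLC25A11 the peaks of all lists reach over the start codon, whereas those of MFN2 and MRPL49 lie towards the 3′ end.

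At the single intervals the 4 values differed by gene. In SLC25A11, the interval of 16 nt at chr17:4939825-4939840 had 5.24 and 4.92 over input and 5.02 and 4.34 over the empty vector. In SLC25A25, the 3′ UTR interval at chr9:128107681-128107766 had 4.72 and 5.03 over input and 4.81 and 4.52 over the empty vector. These 2 intervals had high values in each list, in contrast to that of COX7A2, with 3.91, 3.39, 3.45 and 3.20 in the same order. The interval at the start codon of NDUFA9, at chr12:4649112-4649175, had 4.46, 5.03, 4.15 and 3.85. The MFN2 interval in the 3′ UTR, at chr1:12012469-12012537, had 4.15, 4.27, 3.42 and 3.57, with the input values above both empty vector values.

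The GU-loop:5nt-stem was called in 11 of the 22 shared intervals (50.0%, 30.7 to 69.3), against 36.6% of all 749. These 11 lay in 8 of the 10 genes, a count that was not made for the genes of all 749. No GU was present in 1 of the 22 and in 101 of the 749, which could not be called. Among intervals over 30 nt, the shares were 56.25% of 16 and 47.8% of 531, a smaller gap. For folding, 50 nt of genome were added to each end of an interval, which is intron where an exon ends. This order depended on the setting. Folded without flanks, 22.7% of the members' intervals and 28.8% of all had the motif. With stem bases paired over 0.7, the shares were 4.55% and 13.1%. Median GC content was 61.7% in the members' intervals and 58.5% in all.

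The share of peaks over input that overlapped a peak over the empty vector varied by class when counted by peak. It was lowest in ribosome genes and highest in carriers among the 3 classes with 30 or more peaks. For V5 the shares were 22.5% of 40 peaks in ribosome genes (12.3 to 37.5), 46.8% of 62 in respiratory chain genes and 56.4% of 39 in carriers (41.0 to 70.7). For FLAG they were 20.0% (9.51 to 37.3), 26.0% and 40.9% (27.7 to 55.6), with overlapping intervals. These count neighbouring peaks separately, and SLC25A11, SLC25A25 and SLC25A3 each had 18 peaks over input. Genes with a peak over input were also counted once each. For V5, 6 of 19 ribosome genes, 12 of 24 respiratory chain genes and 7 of 12 carriers had a peak over the empty vector. For FLAG the counts were 4 of 14, 8 of 16 and 5 of 12, highest in respiratory chain genes (50.0%). The intervals of these gene shares overlapped for both tags. Of all members' peaks over input, 40.8% for V5 and 29.0% for FLAG overlapped a peak over the empty vector. These shares were close to the 36.7% and 28.1% of all protein-coding genes. Members' peaks that overlapped one had a median of 4.04 for V5, and the others 3.40.

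Assignment of reads among similar genes could not be checked from the lists. Of the 72 members with a peak, 31 have pseudogenes named after them, among them SLC25A5, ATP5PB and ATP5F1A, and their part in the values was not tested. In 13 members, 65 of the 407 peaks lay on exons shared with another gene on the same strand, so that both genes could be the source.

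Other nuclear genes for mitochondrial proteins, 86 genes in 5 lists, together had peaks in shares similar to those of the members. Any peak was found for 28 of them (32.6%), against 27.5% of the members and 18.1% of all protein-coding genes. Over input, 26 had a V5 peak (30.2%, against 13.6% of all) and 16 a FLAG peak (18.6%, against 13.2%). In any list, 9 of 20 genes of mitochondrial shape and mitophagy (45.0%) and 7 of 18 of the TCA cycle and pyruvate dehydrogenase had a peak. So did 5 of 18 chaperones and proteases, 5 of 19 other import and assembly genes and 2 of 11 translation factors (18.2%). PINK1, a kinase that marks damaged mitochondria, had 4.94 and 5.05 over input for V5 and FLAG and 4.05 and 4.49 over the empty vector. Shared intervals were found in PINK1, MIEF1, MUL1 and OGDH, 4.65% of the 86, against 2.07% of all protein-coding genes. The 13 mRNAs and 2 rRNAs that mitochondrial DNA encodes had 0 peaks in the 4 lists, and its tRNAs had 3, with 3.53 (V5) and 4.00 (FLAG) over input on MT-TP and 4.38 (FLAG over input) on MT-TC.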

How the data were processed

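Members and gene lists were chosen with earlier results of these data known. The authors trimmed reads with cutadapt 1.14, handled molecular identifiers with UMI-tools 1.0.0, aligned them with STAR 2.4.0i to GRCh38 (hg38) and used SAMtools 1.6, per the labels. They called peaks with their eCLIP pipeline and merged both replicates by the Irreproducible Discovery Rate. The authors deposited, for each peak, a log2 enrichment (the geometric mean ratio of IP to control reads) and a −log10 p-value. Library scaling and the handling of reads with several positions are not given in the sources used here, and depth is unknown. No per-sample value was analysed, and lists were linked to samples by the description labels.

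From these lists, peaks were assigned to exons of GENCODE version 44 (at least 1 nt, same strand). Regions came from the canonical transcript, by the largest number of bases. A peak on exons of several genes counts once for each. Shared intervals were formed within V5, within FLAG and then between both, keeping the overlapping part. Pairing probabilities came from ViennaRNA 2.7.2 (window 70, span 70, u 1). The computations were tested on simulated data. Named genes were those with a shared interval, the 5 highest per class by mean input value, the 3 with most peaks, those with a codon-spanning peak in both input lists and the fusion genes. Of these, 2 genes are not reported here. The others named (UQCRC1, COX18, SDHA, TIMM10, TIMM44, NDUFS1, NDUFS3, ATP5PB and single genes of the other lists) were chosen after their values were seen. Alternatives changed the enrichment threshold, exon overlap, transcript, merging and sharing rules. Python 3.11.15, numpy 2.4.6 and pandas 2.3.3 were used.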

Additional observations from a re-analysis of the deposited data

How the results depend on the processing

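Of 197 alternative values for 39 results, 168 moved by less than the counting interval or 1.5 times and 29 moved further. None of these values has a sign to turn, apart from r. All genes were computed again only for the gene shares at log2 4 and for the motif settings. There, the order of members against all genes turned for the motif share under both alternatives and for the FLAG empty vector share. For the other results this order was not checked under the alternatives. The stricter threshold of log2 4 gave 25 of the 29, since fewer peaks pass it. It left 21 member genes in V5 and 22 in FLAG over input, 14 and 2 over the empty vector, 2 in all 4 lists and 2 shared intervals in 2 genes. The median enrichments became 4.44 (V5 over input), 4.28 (FLAG over input) and 4.32 (FLAG over the empty vector), and the r of V5 and FLAG 0.26 across 14 genes. Ribosome genes with a peak became 8.97% and 10.3% over input and 1.28% and 0% over the empty vector (V5, then FLAG), respiratory chain genes 6.54% and 7.48% over input and 0% in the FLAG empty vector list, and import genes 7.69% and 0% over input. The CDS held 54.2% of FLAG peaks over input, the 3′ UTR 6.67% (V5) and 50.0% (FLAG) of those over the empty vector, and the 5′ UTR 0% of the latter, of which 4 were left. FLAG peaks over input that overlapped one over the empty vector became 8.33%. Sharing by at least 1 nt gave 36 intervals and by 50% of both intervals 14. The motif share became 22.7% without flanks and 4.55% with stem bases paired over 0.7. Depth, which limits the peaks that reach a list, is unknown. No paired analysis was possible because each list holds 1 value per peak with both replicates merged, and for the same reason no replicate could be left out.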
